A study of Rattus norvegicus with 8 samples.

Results

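The genes described are 10 genes of the endoplasmic reticulum (ER) stress system, chosen by name. The chaperone arm holds the ER chaperones and folding helpers Hspa5, Hsp90b1, Pdia3 and Pdia4, with Xbp1, a transcription factor that raises chaperone genes. The stress arm holds Atf4, Ddit3, Trib3, Chac1 and Asns. Probes were found by the gene name in the scanner files, which gave 11 probes for 9 of the 10 genes, and all 9 were among the 23207 genes tested. Xbp1 was not analysed here. RNA of the ventral prostate was measured in 8 male TRAP rats, labelled as SD strain and at 15 weeks of age. They were heterozygous for the TRAP transgene, known as the SV40 T antigen under the probasin promoter, which is active in prostate epithelium and drives carcinoma there. The 4 control rats (Control 102, 103, 104 and 106) had basal diet and tap water. The 4 treated rats (Telmisartan 302, 303, 305 and 306) drank telmisartan, which blocks the angiotensin II receptor AT1, in their water from 3 weeks of age for 12 weeks. Their label names the doses 2 and 10 mg/kg per day together, and the design text gives 10 mg/kg per day for the rats on arrays. On each 2-colour array the TRAP prostate was in Cy5 and a reference, normal ventral prostate of male F344 rats at 6 weeks, was in Cy3. A level below is the log2 ratio of the TRAP prostate over this reference, and a difference is telmisartan minus control on that log2 scale. Strain, age, transgene and dye differ from the reference at once and cannot be told apart, so levels are described and not tested.

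The ER folds proteins that a cell secretes, and the prostate epithelium is a secretory tissue. Hspa5, known as BiP, binds unfolded chains and holds the stress sensors of the ER membrane inactive until unfolded protein draws it away. The sensors then act through XBP1 and ATF6, which raise chaperone genes through the ER stress response element, and through the kinase PERK, which slows translation and favours the transcription factor ATF4. ATF4 is also reached by other kinases that sense amino acid shortage, so its targets can move without the chaperones.

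The promoters of 4 measured genes are shown because they carry the composite elements of these routes. Each line gives the 200 bases before the RefSeq gene start in GRCr8, 5′ to 3′ on the gene's strand. In Hspa5 (chr3:38452816-38453015, plus strand) and Hsp90b1 (chr7:23012294-23012493, minus strand) the capitals mark the ER stress response element, searched on both strands as CCAAT and CCACG with any 9 bases between them. In Chac1 (chr3:126795931-126796130, plus strand) and Trib3 (chr3:161275534-161275733, minus strand) they mark the letters of the C/EBP-ATF response element, searched as TGATGNAAN on both strands and here read on the opposite strand.
Hspa5: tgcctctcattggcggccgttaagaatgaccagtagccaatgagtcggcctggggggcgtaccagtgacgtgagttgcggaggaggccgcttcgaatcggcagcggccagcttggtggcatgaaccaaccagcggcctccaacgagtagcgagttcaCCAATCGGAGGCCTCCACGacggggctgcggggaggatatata
Hsp90b1: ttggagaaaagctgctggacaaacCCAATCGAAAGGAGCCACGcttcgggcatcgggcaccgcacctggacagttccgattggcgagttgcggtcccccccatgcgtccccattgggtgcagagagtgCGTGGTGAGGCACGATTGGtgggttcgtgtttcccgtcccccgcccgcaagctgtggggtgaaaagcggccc
Chac1: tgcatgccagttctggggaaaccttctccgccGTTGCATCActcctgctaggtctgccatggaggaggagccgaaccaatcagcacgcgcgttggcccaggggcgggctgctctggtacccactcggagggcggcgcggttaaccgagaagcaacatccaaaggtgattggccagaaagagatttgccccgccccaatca
Trib3: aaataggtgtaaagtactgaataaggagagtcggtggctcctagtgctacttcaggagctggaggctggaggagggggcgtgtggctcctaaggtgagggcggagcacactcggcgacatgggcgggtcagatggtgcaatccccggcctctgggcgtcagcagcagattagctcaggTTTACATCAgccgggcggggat
Promoter windows of 250 bases before to 50 bases after the start were available for 9 of the 10 genes, all but Pdia3. The ER stress response element was in 3 of them, Hspa5, Hsp90b1 and Xbp1, and in 22 of 33469 promoters in all (0.0657%). Hsp90b1 held it at 2 places, once on each strand, which do not overlap. The C/EBP-ATF letters were in 2 of 9, Chac1 and Trib3, against 3.97% of all promoters. The related elements ATTGG and CCACG with any 1 base between, and TGACGTGG, both searched on both strands, were in 0 of 9 and in 0.0508% and 0.595% of all promoters. A match in letters describes the sequence and is not evidence of binding.

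Against the normal prostate the chaperones did not share a direction. Pdia3, the disulfide isomerase that works with calnexin and calreticulin on glycoproteins, was low, Hspa5 was slightly low, and Hsp90b1 and Pdia4 were high. Pdia3 and Atf4 were below 2-fold in all 4 control rats and in all 8 rats, 2 of 9 genes, where 4.18% and 3.29% of all genes tested were. With each array centred on its median in place of loess, 0 of the 9 genes were below and 4 above 2-fold in all 4 control rats, and Atf4 stood at 0.0674. With loess, none of the 9 genes was above 2-fold in all 4 control rats (5.19% of all genes) or in all 8 rats (3.73%). The median of all genes tested was 0.06. The direction of a level depends on the normalization within arrays. With median centring the median of all genes was 0.67, and relative to the median of all genes Hspa5 moved from -0.36 to +0.47 and Asns from -0.36 to +0.35. Pdia3 (-1.58 and -0.83) and Atf4 (-1.41 and -0.60) stayed below it, and Pdia4 (+1.18 and +1.85) and Hsp90b1 (+0.91 and +1.70) above it.

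Pdia3 stood at -1.51, -1.31, -1.77 and -1.49 in Control 102, 103, 104 and 106. In Telmisartan 302, 303, 305 and 306 it stood at -1.26, -1.20, -1.37 and -1.40. All 8 rats were below the reference, Control 104 was lowest, and the groups overlapped through Control 103 alone. The control mean was -1.52 ± 0.19 (SD, n = 4), or 2.87-fold lower than the reference. The treated mean was -1.31 ± 0.09. The difference was +0.21 (SE 0.11, 95% interval -0.04 to 0.47, limma unadjusted p = 0.0910, adjusted p = 0.981). Pdia3 was the 1 gene of the 9 with a higher treated mean (49.4% of all genes), and its difference was +0.18 on slide 1 and +0.24 on slide 2.

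Pdia4, a disulfide isomerase of the ER lumen, stood at 1.23, 0.81, 1.52 and 1.41 in the 4 control rats, in the same order. The treated rats had 1.38, 0.18, 1.14 and 0.87. Every rat was above the reference, Telmisartan 303 stood well below the others, and the groups overlapped. The control mean was 1.24 ± 0.31, or 2.36-fold above the reference, and the treated mean was 0.89 ± 0.52. The difference was -0.35 (SE 0.25, 95% interval -0.91 to 0.21, limma adjusted p = 0.981). Without Telmisartan 303 it was -0.11.

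Hsp90b1, also known as GRP94 or Tra1, is the HSP90 of the ER and folds integrins and Toll-like receptors. The probe used had 0.87, 0.62, 1.30 and 1.07 in control rats. The treated rats had 1.28, 0.51, 0.90 and 1.02 on it. The groups covered nearly the same range, with Control 103 and Telmisartan 303 lowest. The means were 0.97 ± 0.29 and 0.93 ± 0.32, with a difference of -0.04 (SE 0.19, 95% interval -0.45 to 0.38, limma adjusted p = 0.997). A second Hsp90b1 probe read higher in some rats. It had 2.00, 0.96, 1.59 and 1.00 in control and 2.28, 0.65, 0.91 and 0.97 in treated rats. The probes were close in Telmisartan 305 and 306 and Control 106 and far apart in Control 102 and Telmisartan 302, so the size of the Hsp90b1 level depends on the probe while its direction does not. Both are shown for that disagreement, with no base in capitals, and each of these stretches of 60 bases has 1 reading frame free of stop codons.
Hsp90b1 probe used: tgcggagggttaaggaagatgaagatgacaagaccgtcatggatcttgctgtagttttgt
Hsp90b1 second probe: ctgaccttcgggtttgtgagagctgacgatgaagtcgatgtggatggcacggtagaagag

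Hspa5, the BiP chaperone, stood close to the reference. Its levels were -0.44, -0.32, -0.14 and -0.30 in control rats. In the treated rats they were -0.04, -0.70, -0.46 and -0.67. Telmisartan 302 was the highest of all 8 and Telmisartan 303 and 306 the lowest, so the treated rats spread to both sides of the controls. The means were -0.30 ± 0.13 and -0.47 ± 0.31, and the difference was -0.16 (SE 0.15, 95% interval -0.50 to 0.17, limma adjusted p = 0.981). Without Telmisartan 302 it was -0.31, and on slide 1 and slide 2 alone it was +0.02 and -0.34. The 4 genes with a symbol whose levels followed Hspa5 most closely over the 8 arrays, out of 11422, were C1galt1 (Pearson r = 0.982), Urm1 (0.956), Stag1 (0.954) and Tm9sf1 (0.946), given as a description.

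**Figure D1:**
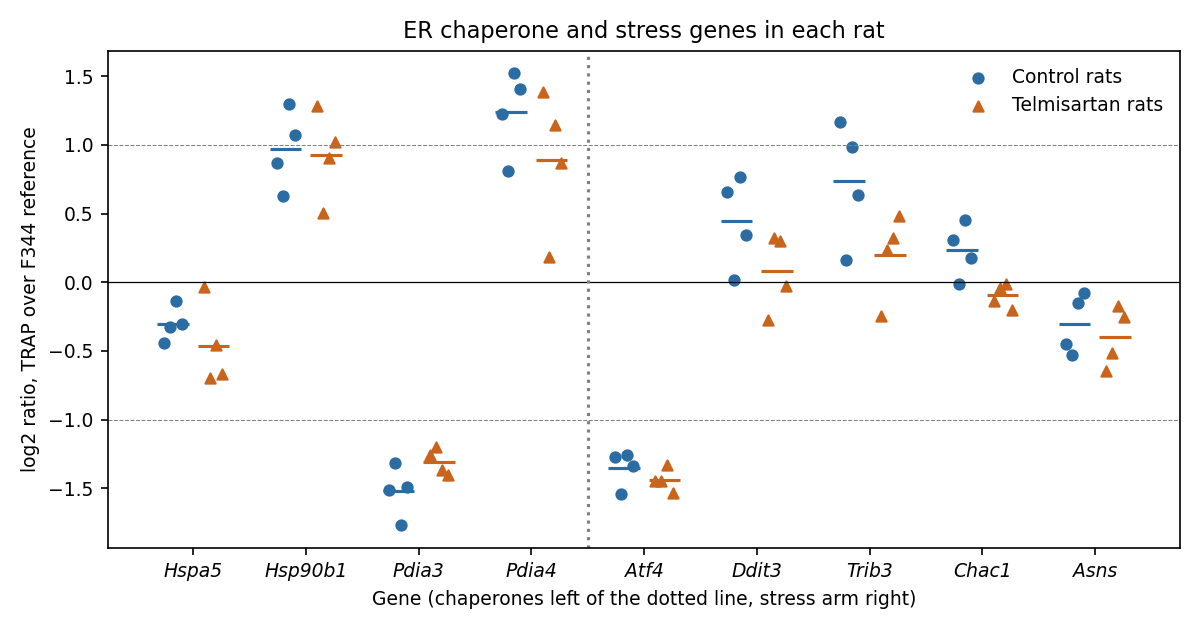
Level of each gene in each rat, as the log2 ratio of the TRAP prostate over the F344 reference (vertical axis); circles are the 4 control rats, triangles the 4 telmisartan rats, short lines the group means and dashed lines 2-fold. Pdia3 and Atf4 lie below the lower dashed line in all 8 rats, and the Chac1 triangles all lie below the circles.

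**Figure D2:**
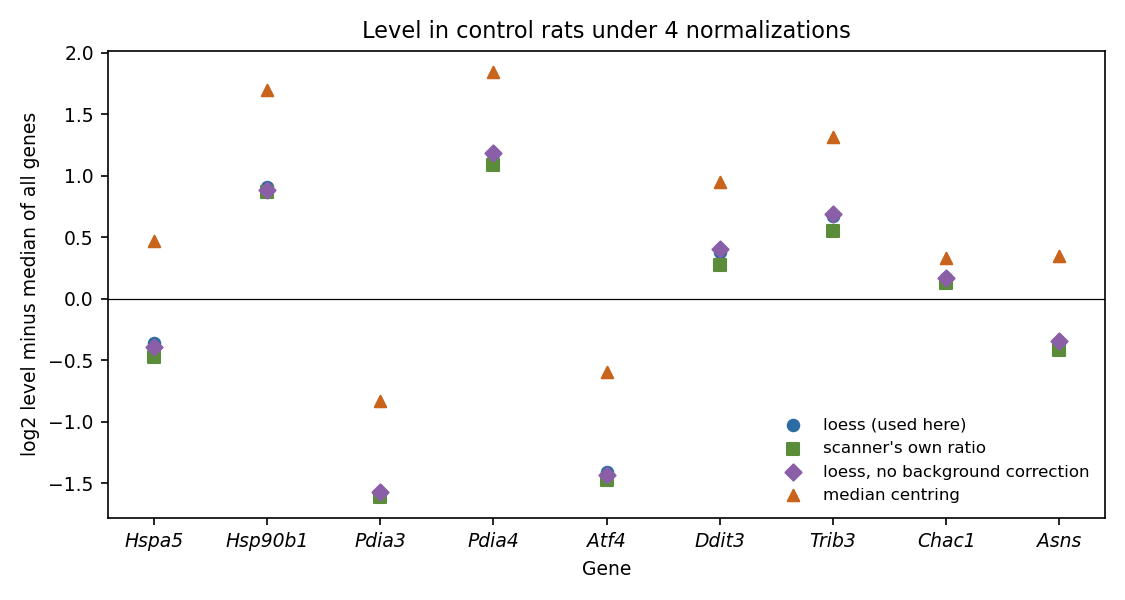
Mean level in the 4 control rats minus the median of all genes tested (vertical axis, log2), under 4 normalizations. With median centring, Hspa5 and Asns lie above 0, and Pdia3 and Atf4 stay below 0.

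In the stress arm, the control mean was low for Atf4, above the reference for Trib3, Ddit3 and Chac1, and slightly below it for Asns. Atf4, whose protein is controlled mainly by translation, stood at -1.27, -1.54, -1.26 and -1.33 in control rats. The treated rats had -1.44, -1.44, -1.33 and -1.53. All 8 rats lay in a narrow band below 2-fold, and the groups overlapped. The control mean was -1.35 ± 0.13, or 2.55-fold lower than the reference, and the treated mean -1.44 ± 0.08. The difference was -0.09 (SE 0.10, 95% interval -0.31 to 0.13, limma adjusted p = 0.981).

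Trib3 encodes a pseudokinase that binds AKT and ATF4. Its levels were 1.17, 0.16, 0.99 and 0.63 in Control 102, 103, 104 and 106. In Telmisartan 302, 303, 305 and 306 they were -0.24, 0.24, 0.32 and 0.48. Control 103 lay among the treated rats and the other three control rats lay above all of them. The means were 0.74 ± 0.44 and 0.20 ± 0.31, a difference of -0.54 (SE 0.23, 95% interval -1.04 to -0.03), with the control mean 1.45-fold above the treated mean. It did not pass over all genes (limma unadjusted p = 0.0390, adjusted p = 0.981). The unadjusted p was 0.0580 with the scanner software's own ratios and 0.108 with median centring in limma. On slide 1 and slide 2 alone the difference was -0.67 and -0.41, without Control 103 -0.73 and without Telmisartan 302 -0.39.

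Ddit3, known as CHOP, is a transcription factor that favours cell death under lasting ER stress. The control rats had 0.65, 0.01, 0.76 and 0.35. The treated rats had -0.27, 0.32, 0.30 and -0.03. As for Trib3, Control 103 lay among the treated rats, and Telmisartan 302 was lowest. The means were 0.44 ± 0.34 and 0.08 ± 0.28, and the difference was -0.37 (SE 0.19, 95% interval -0.79 to 0.06, limma unadjusted p = 0.0830, adjusted p = 0.981). It was -0.31 on slide 1 and -0.42 on slide 2.

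Chac1 encodes an enzyme that breaks down glutathione. The probe used had 0.30, -0.01, 0.45 and 0.18 in control rats. The treated rats had -0.13, -0.04, -0.01 and -0.20. The treated rats all lay below the control rats, though Control 103 and Telmisartan 305 parted only at the third decimal. Of all genes, 1.23% had treated values below all controls and 1.5% above, and Chac1 was the 1 gene of the 9 with no overlap. The means were 0.23 ± 0.20 and -0.10 ± 0.09, and the difference was -0.33 (SE 0.11, 95% interval -0.58 to -0.07, limma unadjusted p = 0.0175, adjusted p = 0.981). It was -0.23 on slide 1 and -0.42 on slide 2. A second Chac1 probe, well above background in Cy5 on 1 of 8 arrays and in Cy3 on 0 of 8, had means of -0.06 in control and 0.18 in treated rats.

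Asns, asparagine synthetase, had -0.45, -0.53, -0.15 and -0.08 in control rats. The treated rats had -0.64, -0.52, -0.17 and -0.25. All 8 rats were below the reference, and within both groups the rats of slide 1 (Control 102 and 103, Telmisartan 302 and 303) were lower than those of slide 2. The means were -0.30 ± 0.22 and -0.40 ± 0.22, with a difference of -0.09 (SE 0.14, 95% interval -0.42 to 0.23, limma adjusted p = 0.990). The genes most like Asns over the 8 arrays were Tnfaip6 (Pearson r = 0.992), Actc1 (0.986), Mpi (0.986) and Ccdc97 (0.981).

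The comparison of the groups asks whether telmisartan alters these genes in the tumour-bearing gland. None of the 9 genes passed an adjusted p of 0.05 in limma, and of all 23207 genes 0% passed. At an unadjusted p under 0.05 there were 2 of the 9, Trib3 and Chac1, both lower in treated rats, against 2.08% of all genes lower, 2.74% higher and 4.82% in either direction. The treated mean was lower for 3 of 4 chaperones (median difference -0.10) and 5 of 5 stress arm genes (median -0.33), where 50.6% of all genes were lower with a median difference of -0.002. With median centring, Hsp90b1, Atf4 and Asns were instead higher in treated rats. The channels were also split after loess, with no scaling between arrays. For Trib3, Cy3 differed between the groups by 0.02 and Cy5 by -0.52 on the log2 scale. For Ddit3 the values were -0.02 and -0.39, for Chac1 0.06 and -0.27, and for Hsp90b1 -0.04 and -0.07. The part of the reference in the differences was not tested. The control arrays lay at positions 3 and 4 and the treated arrays at positions 1 and 2 of both slides, so position and group cannot be told apart.

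**Figure D3:**
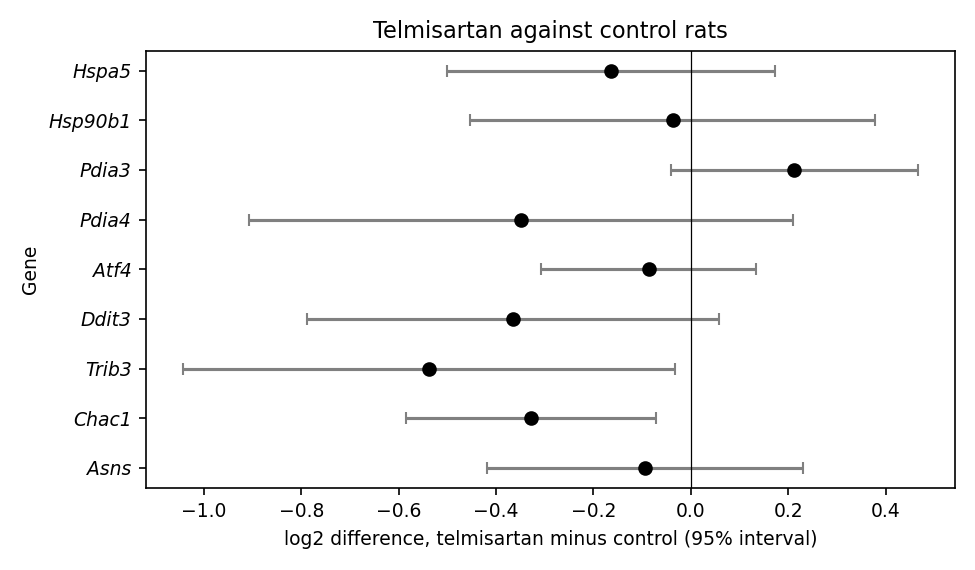
Difference of telmisartan minus control for each gene (horizontal axis, log2), with points for the estimate and bars for the 95% interval from limma, n = 4 rats a group. The intervals of Trib3 and Chac1 lie below 0, those of the other 7 genes include 0, and none passed after adjustment over all genes.

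Hsp90b1 with Pdia4, and Ddit3 with Chac1 and Trib3, had the highest correlations of levels among the 9 genes. Hsp90b1 and Pdia4 went together over the 8 rats (Pearson r = 0.862, exact permutation p = 0.00300; Spearman rho = 0.881, p = 0.00724), although r was 0.610 without Telmisartan 303 and Control 103. Ddit3 went with Chac1 (r = 0.896, exact permutation p = 0.00268; rho = 0.881, p = 0.00724) and with Trib3 (r = 0.883, exact permutation p = 0.00451; rho = 0.810, p = 0.0218). Without Telmisartan 302 and Control 104 these r were 0.862 and 0.743. Pdia3 ran opposite to Chac1 (r = -0.842, exact permutation p = 0.00694; rho = -0.714, p = 0.0576; r = -0.757 without Control 104 and Telmisartan 303). It also ran opposite to Trib3 (r = -0.807, exact permutation p = 0.0146; rho = -0.905, p = 0.00456; r = -0.952 without the same rats). The other pairs of a chaperone with a stress gene lay between Pdia3 with Ddit3 (r = -0.735, exact permutation p = 0.0351; rho = -0.690, p = 0.0694) and Pdia4 with Atf4 (r = 0.588, exact permutation p = 0.117; rho = 0.738, p = 0.0458). Without Control 104 and Telmisartan 303 the first of these r was -0.874, and without Telmisartan 303 and Control 103 the second was 0.653. Over the 45 pairs computed, which included a mean of immune markers, the smallest Benjamini-Hochberg adjusted p was 0.0508 for Pearson and 0.0652 for Spearman, so no pair passed 0.05. A slide held 4 arrays, too few for an r of its own. With slide means removed, r was 0.832 for Hsp90b1 with Pdia4, 0.894 for Ddit3 with Chac1 and 0.875 for Ddit3 with Trib3. The permutations were not kept within groups, so a difference between groups enters these r and p. With group means removed, r was 0.922, 0.886 and 0.824 for the same pairs in that order. For Pdia3 it was -0.716 with Chac1, -0.678 with Trib3 and -0.591 with Ddit3.

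Levels of immune marker genes ran with those of the stress arm over the rats. Of the T cell markers 10 of 10 and of the macrophage markers 8 of 10 were lower in treated rats, where 50.6% of all genes were. The median differences were -0.64 and -0.31. At an unadjusted p under 0.05 in limma, 0 of the T cell and 2 of the macrophage markers were lower, against 2.08% of all genes. None of these markers passed the adjusted threshold. The mean level of these 20 genes was 1.89, 0.75, 1.77 and 1.72 in Control 102, 103, 104 and 106. In Telmisartan 302, 303, 305 and 306 it was 0.34, 1.20, 1.75 and 1.18. Control 103 and Telmisartan 302 were thus the lowest rat of their groups, as they were for Trib3 and Ddit3. Over the 8 rats this mean went with Ddit3 (r = 0.879, exact permutation p = 0.00432; rho = 0.881, p = 0.00724; r = 0.806 without Telmisartan 302 and Control 104) and with Trib3 (r = 0.855, exact permutation p = 0.00618; rho = 0.881, p = 0.00724; r = 0.683 without Control 102 and Telmisartan 302). With slide means removed r was 0.909 and 0.855, and with group means removed 0.863 and 0.850. Adjusted over the 45 pairs the exact permutation p of the r with Ddit3 and Trib3 was 0.0508 and 0.0521. The r with the immune mean was 0.780 for Atf4 (exact permutation p = 0.0249; rho = 0.833, p = 0.0154; r = 0.841 without Control 103 and Telmisartan 306), 0.747 for Asns (exact permutation p = 0.0324; rho = 0.643, p = 0.0962; 0.553 without Telmisartan 302 and Control 106) and 0.694 for Chac1 (exact permutation p = 0.0563; rho = 0.738, p = 0.0458; 0.565 without Control 104 and Control 102). Of the chaperones, Pdia3 ran opposite to the immune mean (r = -0.661, exact permutation p = 0.0691; rho = -0.738, p = 0.0458; r = -0.878 without Control 104 and Telmisartan 303). Pdia4 (r = 0.255, exact permutation p = 0.541; rho = 0.381, p = 0.360) and Hsp90b1 (r = 0.0400, exact permutation p = 0.924; rho = 0.0476, p = 0.935) had smaller r, which were 0.0621 and -0.527 without Telmisartan 303 and Control 103. Hspa5 had r = -0.240 (exact permutation p = 0.561; rho = -0.119, p = 0.793; r = 0.222 without Telmisartan 302 and Telmisartan 303). With the immune mean as a covariate the treated minus control difference was -0.29 for Trib3, -0.16 for Ddit3 and -0.25 for Chac1, against -0.54, -0.37 and -0.33 without it. In bulk tissue, fewer cells of a type and less RNA per cell cannot be told apart.

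**Figure D4:**
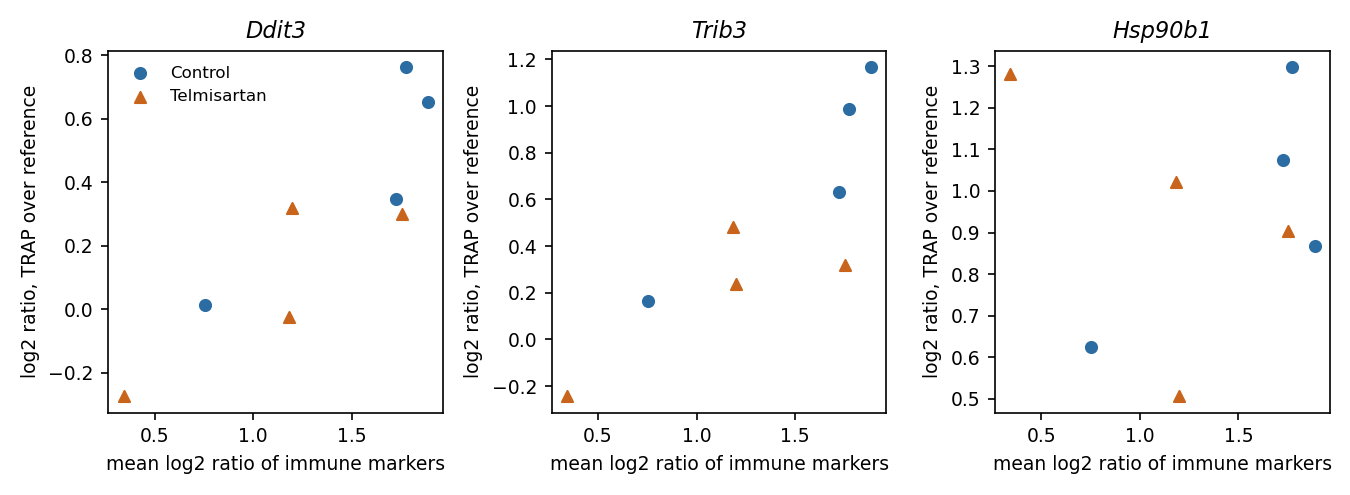
Level of Ddit3, Trib3 and Hsp90b1 (vertical axes, log2 ratio over the reference) against the mean level of 20 T cell and macrophage markers (horizontal axes), 1 point per rat. Ddit3 and Trib3 are lowest in Telmisartan 302, where the immune mean is 0.34, while Hsp90b1 is high there at 1.28.

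Other genes of ER folding lay on both sides of the reference. Of 20 measured genes out of 25, 1 was above 2-fold in all 4 control rats and 1 below, or 5% each where 5.19% and 4.18% of all genes were, 7 had a control mean above 0, and the median level was -0.45. Pdia5, another disulfide isomerase, was at 3.48 ± 0.13 and was the gene above 2-fold. Uggt1, a folding sensor for glycoproteins, was at 0.68 and the lectin chaperone Canx at 0.58, with Erp29 at 0.32. At the low end were Selenos, a membrane protein of ER-associated degradation, at -1.61, Dnajb9, a co-chaperone of BiP, at -1.22, the prolyl isomerase Fkbp11 at -1.20 and the secreted stress factor Manf at -1.11. In treated rats 10 were lower and 10 higher, with a median difference of 0.004. P4hb, the main disulfide isomerase, was at -0.02 ± 0.29 in control and 0.38 ± 0.17 in treated rats (difference +0.40, SE 0.15, limma unadjusted p = 0.0285, adjusted p = 0.981).

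Genes that carry proteins into, through and out of the ER were low on balance in the control TRAP prostate. For protein entry and glycosylation, 20 genes of 24 were measured, with a median level of -0.67. Of these 5, or 25%, were below 2-fold in all 4 control rats against 4.18% of all genes: Srpra (-1.42) and Srp54a (-1.28) of the signal recognition route, the channel subunit Sec61a1 (-1.31), Spcs2 of the signal peptidase (-1.19) and Sec62 (-1.11). For traffic to and from the Golgi, 18 of 20 genes were measured, with a median level of -0.78. All 18 had a control mean below 0, where the median of all genes was 0.06. Of the 18, 4 or 22.2% were below 2-fold in all 4 control rats, against 4.18% of all genes. Among these were Sar1b, the GTPase that starts COPII coats, at -1.52, and the SNARE Bet1 at -1.29. The cargo lectin Lman1 at -1.25 and Kdelr3, which returns chaperones to the ER, at -1.22 were not past 2-fold in every control rat. For ER-associated degradation the median of 15 measured genes out of 17 was -0.50, with the ligase Syvn1 at -1.45, Erlec1 at -0.88, its partner Sel1l at -0.83 and Derl1 at -0.75. These low medians hold under loess. Relative to the median of all genes, entry, traffic and degradation then lay at -0.73, -0.84 and -0.56. With median centring they lay at +0.006, -0.10 and -0.01, and folding went from -0.51 with loess to +0.20. With median centring 10 of 20 entry, 6 of 18 traffic and 7 of 15 degradation genes lay above the median of all genes. With loess 4, 0 and 0 did.

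In treated rats, genes of these routes lay on both sides of the controls. Of the entry genes 7 were lower and 13 higher (median difference 0.03), of the traffic genes 7 and 11 (0.04) and of the degradation genes 4 and 11 (0.06), and with the immune marker mean as a covariate 12 of 20 entry genes and 8 of 15 degradation genes were lower. Of all genes 49.4% were higher. With 1 rat left out the median ranged from -0.07 (without Telmisartan 302) to 0.09 (without Telmisartan 303) for entry, from 0.02 to 0.08 for traffic and from 0.005 (without Control 102) to 0.08 for degradation. None passed the adjusted threshold in limma. Stt3a, a catalytic subunit of the oligosaccharyltransferase, had the smallest p among them, at 0.09 ± 0.39 in control and -0.31 ± 0.10 in treated rats (difference -0.41, SE 0.18, limma unadjusted p = 0.0453, adjusted p = 0.981).

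Among 11 measured sensors and factors of the stress response out of 13, the median level was -0.35, and relative to the median of all genes it was -0.41 with loess and +0.11 with median centring. Eif2ak2, the kinase PKR that senses double-stranded RNA, was at 2.24 ± 0.34. It was the 1 gene of the 11 above 2-fold in all 4 control rats, or 9.09% where 5.19% of all genes were. Of the ER sensors themselves, Ern1, which encodes IRE1, was at -0.72 ± 0.16 and Eif2ak3, which encodes PERK, at -0.64 ± 0.26. Atf6 was at -0.36 ± 0.55 and lay above the reference in Control 103 (0.28) and Telmisartan 303 (0.32). The amino acid sensor Eif2ak4 was at -0.44 and the ER-bound factor Creb3l1 at -0.42. In treated rats 3 were lower and 8 higher, where 49.4% of all genes were higher. The median difference was 0.09, and none had an unadjusted p under 0.05 in limma.

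The other targets of ATF4 were mostly lower in treated rats. Of 34 measured genes out of 40, which share Ero1a with the folding genes, 27 were lower (79.4%, against 50.6% of all genes), with a median difference of -0.11. None passed the adjusted threshold in limma, and 4 of 34 had an unadjusted p under 0.05, all lower, where 2.08% of all genes did. Atf5, a transcription factor related to ATF4, had the smallest p. Its levels were 0.70, 0.50, 1.13 and 0.83 in control and -0.17, -0.01, 0.49 and 0.26 in treated rats. The groups did not overlap, as for 1.23% of all genes, though Control 103 (0.499) and Telmisartan 305 (0.494) nearly met. The difference was -0.65 (SE 0.17, limma unadjusted p = 0.00411, adjusted p = 0.922). Nupr1, a stress-induced chromatin protein, was at -2.02 ± 0.03 in control and -2.29 ± 0.20 in treated rats (difference -0.27, limma unadjusted p = 0.0393, adjusted p = 0.981). It also had no overlap, though Control 106 (-2.04) and Telmisartan 303 (-2.06) lay close together. Cebpg, a partner of ATF4, differed by -0.25 and Phgdh, the first enzyme of serine synthesis, by -0.33.

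Immune markers were also lower on average in the treated group, though Telmisartan 305 (mean 1.75) lay within the control range of 0.75 to 1.89. With the immune mean as a covariate, 22 of the 34 ATF4 targets were lower, with a median difference of -0.04. With median centring it was 21 of 34 (median -0.08), and without Telmisartan 302 or without Control 106 it was 23 of 34. On slide 1 and slide 2 alone it was 25 and 27. Of the smooth muscle markers 7 of 8 were higher in treated rats (median 0.22), where 49.4% of all genes were. At an unadjusted p under 0.05 in limma 3 of the 8 were higher, against 2.74% of all genes, and none passed adjustment. Their mean level ran from -1.47 to -1.01 in control and from -1.21 to -0.74 in treated rats. Of the basal cell markers 6 of 7 were higher (median 0.16), 1 of them at an unadjusted p under 0.05 in limma and none after adjustment. The basal mean level ran from -1.32 to -0.52 in control and from -0.85 to -0.34 in treated rats. The part of these cells in the ATF4 target counts was not tested. Over the reference, 19 of the 34 had a control mean above 0, with a median level of 0.13. The arginine transporter Slc7a3 was highest at 2.38 ± 1.35, followed by Phgdh at 0.97, the death gene Bbc3 at 0.92 and Atf5 at 0.79. At the low end after Nupr1 were Cars1, a transfer RNA ligase, at -0.62, and the amino acid transporter subunits Slc7a5 at -0.59 and Slc3a2 at -0.51.

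**Figure D5:**
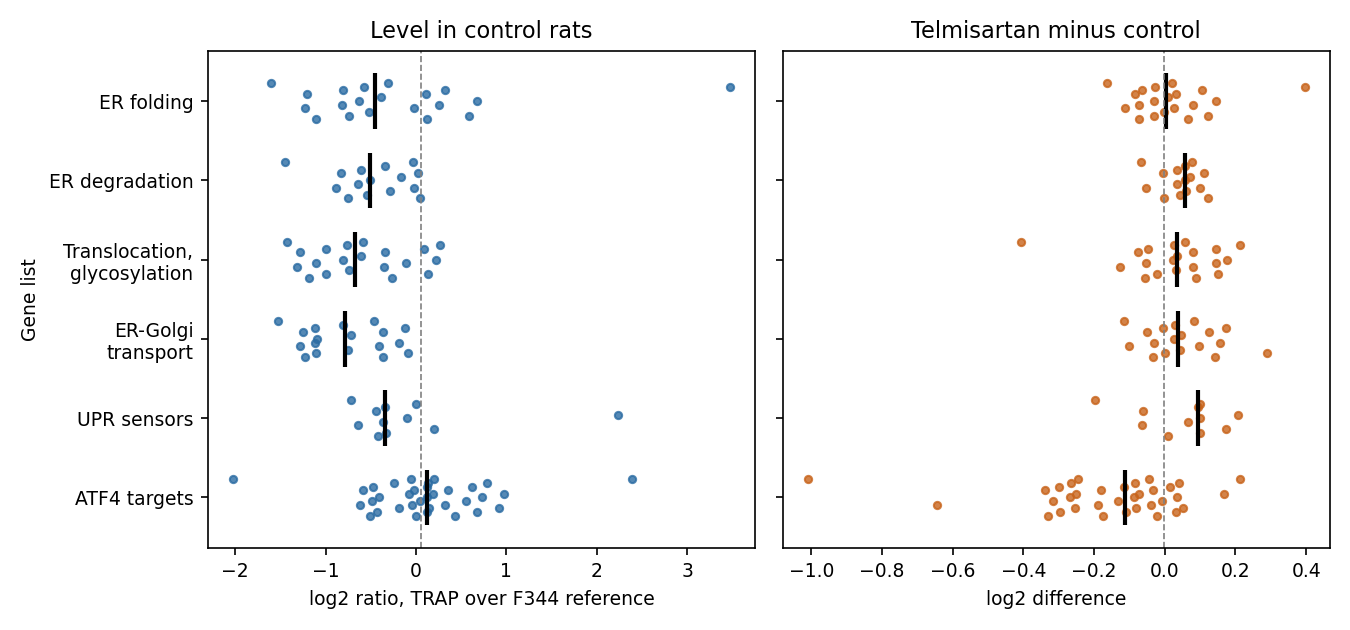
Each point is 1 gene of a list, as the mean level in the 4 control rats (left, log2 ratio over the reference) and as telmisartan minus control (right, log2); black bars are list medians and dashed lines the median of all genes. Golgi traffic genes all lie left of 0 in the left panel, and ATF4 targets lie mostly left of 0 in the right panel, with a median of -0.11.

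Other cells of the gland could hold these genes. Plasma cells are rich in ER chaperones. Of 15 plasma and B cell markers 7 were measured, and all 7 had a control mean above the reference. Among them were Sdc1 at 2.81, which epithelium also expresses, Jchain at 1.43, the plasma cell receptor Tnfrsf17 at 1.25 and Mzb1 at 0.77. The mean level of the 7 ran from 0.84 to 1.38 in control and from 0.51 to 1.22 in treated rats. Of 13 luminal markers, the secreted proteins Andpro (-9.15), Scgb1d2 (-7.02) and Msmb (-6.56) were far below the reference, while the secreted protein Azgp1 (3.92), the tight junction protein Cldn4 (1.08) and the luminal factor Foxa1 (1.00) were above it and the luminal keratins Krt8 (-0.21) and Krt18 (0.34) near it. The luminal mean ran from -1.93 to -1.49 in control and from -1.77 to -1.52 in treated rats. Of 10 skeletal muscle markers 6 were measured, with a median level of -4.38. All 6 were below 2-fold in the 4 control rats, against 4.18% of all genes. The marker levels depend on the processing. Relative to the median of all genes, the plasma and B cell median was +0.71 with loess and +2.49 with the scanner software's ratios. With median centring it was +0.25, and 2 of 7 markers lay below the median of all genes. The luminal median went from -0.47 with loess to -0.001 with median centring, and the skeletal muscle median from -4.44 to -3.77. The part of these cells in the levels of the ER genes was not tested.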

How the data were processed

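Ventral prostate RNA of 8 rats was measured on 8 arrays, 1 per rat, 4 per group. Per the file headers, the scanner files came from Agilent Feature Extraction 9.1. The deposited intensities are mean spot signals and median local backgrounds, uncorrected, in Cy5 and Cy3. The deposited log10 ratios were background-subtracted and dye-normalized by that software, and the deposited series matrix equals them within 0.00500. A 2-colour array has no read depth: the number of arrays limits the precision.

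Intensities were corrected with normexp (offset 50) and normalized by loess within each array, control spots at weight 0, in limma 3.58.1 and R 4.3.3. A probe was kept where Cy5 was well above background on 4 or more of the 8 arrays, and the brightest probe stood for each gene. Of the gene spots, 64.7% to 76.8% in control and 59.2% to 68.1% in treated rats were above background in Cy5. Groups were compared with lmFit and eBayes, two-sided, p-values being adjusted over all genes by Benjamini-Hochberg and called under 0.05. Rats are separate animals per the labels; the sources used here do not say whether the reference was 1 pool.

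The members and gene lists were chosen with earlier results of these data known. Named genes were all members; in each list up to 4 farthest above and 4 farthest below the reference and up to 3 with the smallest p; and the 4 most like Hspa5 and Asns. Promoters are printed for measured members with a composite element. From each list the text names part of these, and Sec62, Krt8 and Krt18 were added after their values were seen. Names and promoters came from RefSeq tables of GRCr8. Alternatives covered background, normalization, filter, probe choice, slide, variance, array weights, an immune covariate and each rat left out. The fit was tested on simulated data.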

Additional observations from a re-analysis of the deposited data

How the results depend on the processing

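No gene passed the adjusted threshold in any setting that kept all 8 rats or 1 slide; leaving out 1 rat gave 0 to 1, in both cases no member (BI289714 without Control 102 and AI045810 without Telmisartan 303). Genes at an unadjusted p under 0.05 numbered 1118 as reported, 2597 with array weights, 1959 of 35302 with no filter on dim probes, 467 on slide 1 alone, and 669 to 2019 with 1 rat left out. Members above 2-fold in the control rats numbered 4 with median centring and 2 on slide 2 alone, against 0 as reported, and 0 to 1 with 1 control rat left out (1 without Control 103). Members below 2-fold numbered 0 with median centring and 2 in every other setting. With median centring the level of Atf4 was +0.0674, and the treated minus control difference turned to +0.0934 for Hsp90b1, +0.0505 for Atf4 and +0.00807 for Asns. It was also above 0 for Hspa5 (+0.0167) and Hsp90b1 (+0.15) on slide 1 alone and for Asns (+0.0268) with the immune covariate. With 1 rat left out Hsp90b1 ranged from -0.16 to 0.10, above 0 without Control 104 (+0.07) or Telmisartan 303 (+0.10). The cause of these turns was not tested. The differences of Pdia3, Pdia4, Ddit3, Trib3 and Chac1 kept their sign in all 23 alternatives. Chac1 ranged from -0.41 to -0.25 over the settings with all 8 rats, and its p unadjusted in limma was above 0.05 on slide 1 alone, without Control 104 and without Telmisartan 306. The unadjusted p of Trib3 was above 0.05 in 11 of the 23 alternatives: the scanner software's ratios, the series matrix, median centring, the Cy5 channel alone, slide 1 alone, the immune covariate, and without Control 102, 104 or 106 or Telmisartan 302 or 303. No paired analysis was possible because the groups share fewer than 2 replicate numbers. With 4 rats a group, the standard errors of the differences ran from 0.10 (Atf4) to 0.25 (Pdia4).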
